A study of Mus musculus with 4 samples.

Results

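Transcripts of the NF-κB pathway were examined in bulk RNA-seq of cells sorted from mouse melanoma. They came from genes of its subunits, of IκB proteins, which bind the subunits, and of a feedback group. The set held 10 of the 55367 gene rows in the count tables, chosen by symbol. It had the subunit genes Nfkb1, Nfkb2, Rel, Rela and Relb and the IκB genes Nfkbia and Nfkbiz. It also had Tnfaip3, Birc3 and Traf1, grouped as feedback genes, a name that does not say each limits the pathway. All 10 were found and all passed the filter on low counts, which 11837 genes passed.

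Tumors of the mouse melanoma line B16-F10 were dissociated, and per the labels the cells sorted from them carried CD45.2, which marks hematopoietic cells, and CD8, which marks cytotoxic T cells. There were 2 libraries titled WT and 2 titled KO, in a series on Satb1, a chromatin organizer of T cells. The series names a floxed Satb1 allele (Satb1 F/F) with ThPOK-cre, which acts in cells of the CD4 lineage, and with E8I-cre, which acts in CD8 T cells, but no label says which of them the libraries titled KO carry. The labels give no strain, age, sex or number of animals per library, while the study's methods describe subcutaneous tumors, C57BL/6 as the WT host and young adult mice of mixed sexes. Nothing states that the libraries of a group came from separate animals, so that p-values measure only the spread between these libraries.

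The libraries held between 4017875 and 5382915 counts on genes. Satb1 itself had 7 and 5 counts in WT 1 and WT 2 and 131 and 55 in KO 1 and KO 2, against the direction of the label, so every direction below is that of the libraries as titled. The sort label was not borne out by its markers. A T cell list of 10 genes with Cd3e and Cd8a summed to between 82.2 and 106 normalized CPM (counts scaled to a common library size) in the libraries titled WT and to between 1152 and 2054 in those titled KO, with no gene of the list at 0 throughout either group. A macrophage or monocyte list of 13 genes summed to between 19094 and 38983 CPM over the 4 libraries. Xist had 435 and 216 counts in the libraries titled WT and 0 and 3 in those titled KO, while the Y-linked gene Ddx3y had 0 and 0 against 188 and 81, so that sex and title cannot be told apart. In bulk samples of this kind, fewer cells of a type and less RNA per cell cannot be told apart either.

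NF-κB is a family of transcription factors that act as pairs of subunits. RelA and c-Rel, often paired with p50 from Nfkb1, are held in the cytoplasm by IκBα, the product of Nfkbia, until receptor signals lead to its breakdown. RelB, paired with p52 from Nfkb2, belongs to a slower arm that is prominent in dendritic cells, while c-Rel, the product of Rel, is best known from lymphocytes. Nfkbia and Tnfaip3 are themselves induced by NF-κB and shut it down, which makes their transcripts a common readout of recent pathway activity.

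Promoter sequence was examined for κB sites. A κB site, the stretch of DNA that the subunits bind, is often summarized as GGGNNNNNCC, where N is any base. Promoter windows of 300 bases (250 before and 50 after an annotated start, RefSeq, GRCm38.p6) were at hand for 7 of the 10 genes, in 10 windows, and not for Nfkb1, Relb and Nfkbiz. The wide motif, searched on both strands was common: 6 of the 7 genes held it in at least 1 window, as did 53.5% of all 27025 genes with a window. A narrower form, GGGNNTTNCC, which is contained in the wide one and was added after the first search, was held by 4 of the 7 (Nfkb2, Nfkbia, Rel and Tnfaip3), against 5.48% of all genes with a window. These matches describe letters, not binding, and genes with several windows had more chances to match. By the RefSeq starts used, the bases shown for Tnfaip3 and Nfkb2 lie inside the GENCODE spans of these genes given below, not upstream of them. Both genes also had windows at other starts. Rel and Tnfaip3 lay furthest from WT in the libraries titled KO, Nfkbia was the most abundant of the set, and Nfkb2 held the most matches. For these reasons the 100 bases just before a RefSeq start are shown for those 4 genes. They are written 5′ to 3′ on the strand of the gene, with matches to the narrow motif on either strand in capitals, and overlapping matches run together.
Rel, minus strand, chr11:23770970-23771069: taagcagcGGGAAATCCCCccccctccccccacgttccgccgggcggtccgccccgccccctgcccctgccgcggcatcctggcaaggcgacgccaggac
Tnfaip3, minus strand, chr10:19015411-19015510: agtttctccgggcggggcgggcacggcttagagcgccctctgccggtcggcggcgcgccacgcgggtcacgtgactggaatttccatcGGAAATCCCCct
Nfkbia, minus strand, chr12:55492648-55492747: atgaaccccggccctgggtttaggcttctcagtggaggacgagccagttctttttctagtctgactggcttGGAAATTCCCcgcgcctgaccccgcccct
Nfkb2, plus strand, chr19:46304637-46304736: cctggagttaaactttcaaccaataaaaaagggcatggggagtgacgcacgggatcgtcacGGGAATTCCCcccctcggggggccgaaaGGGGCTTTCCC

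Rel and Tnfaip3 share the run GGAAATCCCC within their capitals, 91 bases before the start in Rel and 12 bases before it in Tnfaip3. The match of Nfkbia begins 29 bases before its start, and those of Nfkb2 begin 39, 11 and 10 bases before the start shown, the first of them reading the same on both strands.

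KO was compared with WT to ask which transcripts of the pathway differed between the titled groups. None of the 10 genes passed the threshold of an adjusted p of 0.05 (edgeR quasi-likelihood test), where 0.574% of all genes tested did (0.549% higher and 0.0253% lower in KO). At an unadjusted p under 0.05 there were 2, Rel and Tnfaip3, both higher in the libraries titled KO, against 9.44% of all genes tested in that direction and 13.7% in either. DESeq2 called 1, Rel, where it called 3.51% of all genes tested (2.96% higher in KO). The 10 genes had a median log2 fold change of 0.33, and 9 of 10 had a positive sign, beside a median of 0.05 and 52.6% positive over all genes tested. Both values of the set depended on single libraries: without KO 2 the median was 0.0770 with 6 of 10 positive, without WT 1 it was 0.35 with 6 of 10 positive, and without KO 1 it was 0.46 with 8 of 10 positive. With library totals as the only scaling the set's median was 0.66, beside 0.38 over all genes. The groups did not overlap for 4 genes with higher values in KO (Rel, Tnfaip3, Birc3 and Traf1) and for 1 with lower values (Relb), where 25.3% and 22.6% of all genes tested did not overlap in those directions and 47.9% in either. With 2 libraries against 2, an exact permutation test of a single value cannot go below p = 0.333.

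**Figure D1:**
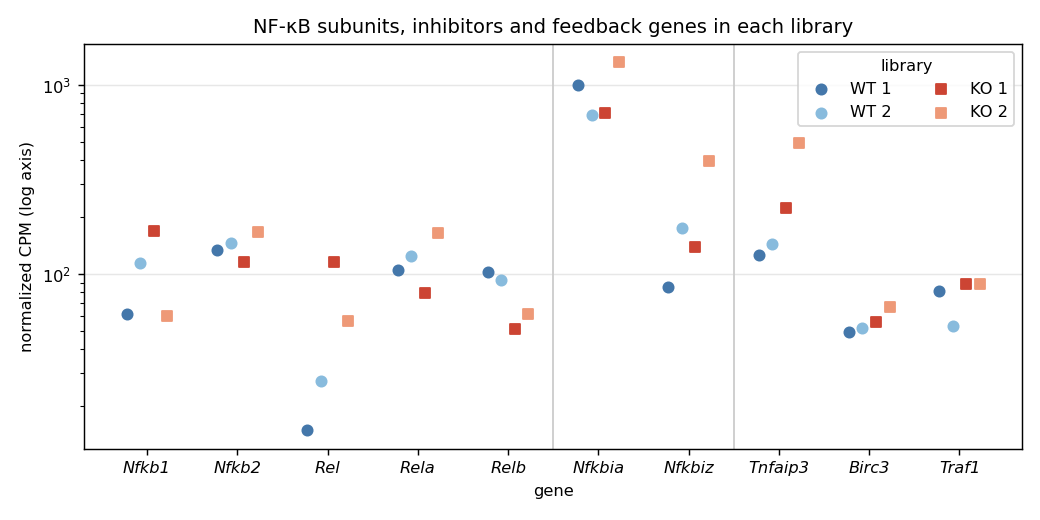
Normalized CPM (log axis) of the 10 genes in each library, with subunits on the left, IκB genes (titled inhibitors) in the middle and feedback genes on the right. Circles are the libraries titled WT and squares those titled KO, and the widest gap between the groups is that of Rel, with 14.95 and 27.4 CPM in WT against 116 and 56.4 in KO.

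Rel (chromosome 11, 23736847 to 23770970, minus strand), the gene of c-Rel, stood furthest apart. In WT 1, WT 2, KO 1 and KO 2 it had 50, 111, 615 and 325 counts, which is 14.95, 27.4, 116 and 56.4 normalized CPM. Both libraries titled KO thus lay above both titled WT, although KO 1 was about as far above KO 2 as WT 2 was above WT 1. The log2 fold change was 2.03 (SE 0.54, 95% interval 0.81 to 3.24), or 4.07-fold, which did not pass (edgeR adjusted p = 0.159, unadjusted p = 0.00430). The value lay above 94.1% of all genes tested. Rel passed in DESeq2 (adjusted p = 0.0217) and when every gene with a count was tested (edgeR adjusted p = 0.0132), and over all alternatives the adjusted p ranged from 0.00683 to 0.99994.

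The level of Rel ran in the same order over the libraries as the T cell list, which summed to 82.2 and 106 CPM in the libraries titled WT and to 2054 and 1152 in KO 1 and KO 2. The melanoma list of 8 genes, with 271, 281, 2031 and 1230 CPM, and the mature dendritic cell list of 10 genes, with 353, 445, 763 and 695, ran in that order too. The fibroblast or endothelium list of 6 genes had 24.8 and 20.2 CPM in WT and 1154 and 186 in KO, so that it was likewise higher in KO 1 than in KO 2. All 10 genes of the T cell list had a positive log2 fold change, 9 of them past the threshold. All 8 of the melanoma list did so too, 1 past the threshold, as did 8 of the 9 tested genes of the mature dendritic cell list, 1 past the threshold. Of the fibroblast or endothelium list 4 genes were tested, all with a positive sign and 3 past the threshold, and 1 gene of it was at 0 throughout WT. The other 3 lists had no gene at 0 throughout a group. The part of these 4 lists in the level of Rel was not tested. Rel also has the longest transcript of the set (7.466 kb), and genes with transcripts over 6 kb had a median log2 fold change of 0.37 against -0.28 for those of up to 1 kb. With each library's trend on transcript length removed, an alternative chosen after seeing the data, the log2 fold change of Rel was 1.67 (edgeR adjusted p = 0.179). Without KO 1 it was 1.40 and without KO 2 it was 2.42, the latter past the threshold (edgeR adjusted p = 0.00859).

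Relb (chromosome 7, 19606217 to 19629438, minus strand), the subunit of the slower arm, was the only gene of the set with a negative log2 fold change. It had 102 and 92.9 CPM in WT 1 and WT 2 and 51.1 and 61.6 CPM in KO 1 and KO 2. The libraries within each group were close, and the groups did not overlap. The log2 fold change was -0.79 (SE 0.41, interval -1.72 to 0.14, edgeR adjusted p = 0.434). It kept its sign under all 12 alternatives, from -0.97 to -0.46. The conventional dendritic cell list of 8 genes summed to 696 and 589 CPM in WT and to 426 and 597 in KO, so that its groups overlapped. Irf8 alone held 575 and 418 CPM of the sums in WT, and of the 6 genes tested 3 had a positive and 3 a negative sign. The mature dendritic cell list, which includes Ccr7 and Fscn1, summed to higher values in KO, opposite to Relb. Of its 9 tested genes 8 had a positive and 1 a negative sign. The negative one, Marcksl1, had 289 and 298 CPM in WT, the largest part of these sums, and 174 and 198 in KO. Ccr7, the only one past the threshold (edgeR), had 5.98 and 8.87 CPM in WT and 258 and 273 in KO. The macrophage or monocyte list had 32286 and 38983 CPM in WT and 19094 and 25778 in KO, the same direction as Relb, and 9 of its 13 genes had a negative log2 fold change, none past the threshold (edgeR, 4 lower at an unadjusted p under 0.05). Whether macrophages or monocytes account for the level of Relb was not tested.

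The other 3 subunits overlapped between the groups. Nfkb1 (chromosome 3, 135584655 to 135691547, minus strand), the gene of p105 and p50, had 61.6, 115, 169 and 60.3 CPM in WT 1, WT 2, KO 1 and KO 2. The highest and the lowest value were both in libraries titled KO, and the log2 fold change of 0.38 (SE 0.57, interval -0.90 to 1.65) became -0.56 without KO 1. Rela (chromosome 19, 5637483 to 5648130), the gene of p65, had 105, 124, 79.3 and 165 CPM, with KO 1 lowest and KO 2 highest. Its log2 fold change was 0.09 (SE 0.48, interval -0.98 to 1.16) and became -0.57 without KO 2. Nfkb2 (chromosome 19, 46304320 to 46312385), the gene of p100 and p52, had 134, 147, 115 and 168 CPM and a log2 fold change of 0.01 (SE 0.43, interval -0.95 to 0.98). That value took the opposite sign under 6 of 12 alternatives. Nfkb2 shares 11.6% of its exonic bases with a gene on the other strand, AC114539.1, and no source states that reads were counted by strand.

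**Figure D2:**
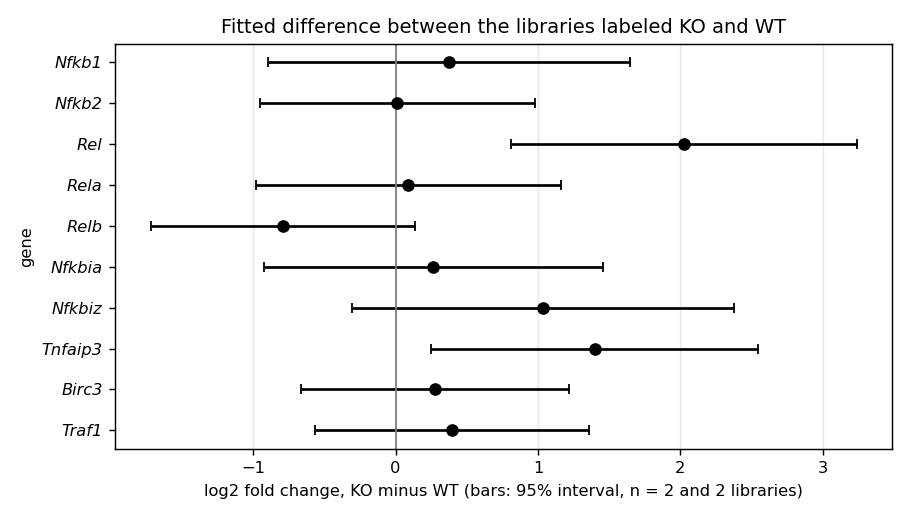
Log2 fold change of KO against WT for each of the 10 genes, with bars for the 95% interval of the fit over 2 libraries a group. The intervals of Rel (0.81 to 3.24) and Tnfaip3 (0.25 to 2.55) lie above 0 before adjustment over all genes, and Relb, at -0.79, is the only negative estimate.

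The make-up of the subunit pool was then compared within each library, where scaling between libraries plays no part. Levels between genes were compared as CPM per kilobase of the longest annotated transcript. The sum over the 5 subunits, which unlike their shares depends on the scaling between libraries, was 122 and 144 CPM per kb in WT and 131 and 145 in KO. Rel made up 1.65% and 2.55% of this sum in WT 1 and WT 2 and 11.9% and 5.21% in KO 1 and KO 2. Relb made up 25.7% and 19.8% in WT and 11.9% and 13.0% in KO, so that for both genes the groups did not overlap. Rela, with 31.8%, 31.9%, 22.3% and 41.8%, was the largest part in WT 1, WT 2 and KO 2, while Nfkb1, with 31.0%, was the largest in KO 1. The length used mattered for Nfkb1, whose exons add up to 12.061 kb against 4.149 kb in the longest transcript, and its share in KO 1 was 14.9% with the sum of all exons as the length. With that length Rel made up 2.07% and 3.34% in WT and 16.6% and 6.37% in KO.

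**Figure D3:**
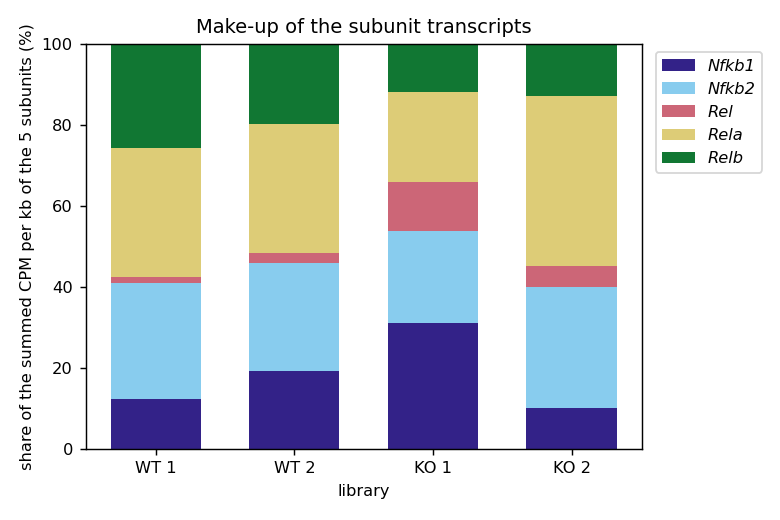
Share (%) of each subunit in the summed CPM per kb of the 5 subunit genes, with 1 bar per library. Rel is 1.65% and 2.55% in the libraries titled WT and 11.9% and 5.21% in those titled KO, while Relb is 25.7% and 19.8% against 11.9% and 13.0%.

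Ratios of counts between 2 genes of a library, with no length applied, restate the same values. There were 0.146 and 0.294 counts of Rel for each count of Relb in WT 1 and WT 2, and 2.28 and 0.915 in KO 1 and KO 2. For each count of Rela there were 0.142 and 0.220 counts of Rel in WT and 1.47 and 0.342 in KO. The ratio of Relb to Rela was 0.974 and 0.747 in WT and 0.644 and 0.374 in KO. The ratio of Nfkb1 to Nfkb2, the genes of both precursor proteins, was 0.460 and 0.783 in WT and 1.46 and 0.360 in KO. That last ratio was highest in KO 1 and lowest in KO 2.

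Nfkbia (chromosome 12, 55489410 to 55492647, minus strand), the gene of IκBα, was by far the most abundant of the set. Per kilobase it had 629 and 436 CPM in WT 1 and WT 2 and 448 and 832 in KO 1 and KO 2, and its mean in WT of 532 ± 136 CPM per kb (SD, n = 2) lay above the next, Rela at 42.2 ± 5.07 (SD, n = 2). In the libraries titled WT the order went on with Nfkb2 at 36.5 ± 2.32, Nfkbiz at 31.7 ± 15.3, Relb at 29.8 ± 2.03, Tnfaip3 at 21.9 ± 2.13, Nfkb1 at 21.3 ± 9.07, Traf1 at 19.6 ± 5.74, Birc3 at 17.4 ± 0.584 and Rel at 2.83 ± 1.17 CPM per kb (SD, n = 2 each). The libraries of neighbors in this order did not overlap for Nfkbia and Rela, Rela and Nfkb2, Relb and Tnfaip3, and Birc3 and Rel, while the other neighbors lay within each other's spread. With the sum of all exons as the length, Nfkb1 dropped from 7th to 9th place at 7.31 CPM per kb and Birc3 took 7th. In the libraries titled KO the order began with Nfkbia, Nfkbiz at 64.8 ± 44.0 and Tnfaip3 at 57.6 ± 30.5 CPM per kb, and ended with Relb at 17.2 ± 2.27 and Rel at 11.6 ± 5.68 (SD, n = 2 each). The end of that order depended on the length used: with the sum of all exons Relb was 6th, Rel 8th and Nfkb1 last.

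In normalized CPM, Nfkbia had 992, 688, 706 and 1313 in WT 1, WT 2, KO 1 and KO 2, so that the groups overlapped. Its log2 fold change was 0.26 (SE 0.53, interval -0.93 to 1.46, edgeR adjusted p = 0.856) and became -0.29 without KO 2. Nfkbiz (chromosome 16, 55811375 to 55838899, minus strand) encodes IκBζ, a nuclear protein that helps NF-κB activate a set of secondary genes. It had 85.8, 175, 139 and 395 CPM, and only KO 2 lay above both libraries titled WT. Its log2 fold change of 1.03 (SE 0.60, interval -0.31 to 2.37, edgeR adjusted p = 0.472) became 0.05 without KO 2 and 1.61 without WT 2.

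Tnfaip3 (chromosome 10, 19000910 to 19015657, minus strand) encodes A20, an enzyme that edits ubiquitin chains and ends signals to NF-κB. It had 126 and 145 CPM in WT 1 and WT 2 and 223 and 491 CPM in KO 1 and KO 2. Both libraries titled KO lay above both titled WT, with KO 2 more than 2 times KO 1. The T cell, melanoma, mature dendritic cell and fibroblast or endothelium lists, given with Rel, were also higher in both libraries titled KO, though higher in KO 1 than in KO 2, and their part in the level of Tnfaip3 was not tested. The log2 fold change was 1.40, or 2.63-fold (SE 0.51, interval 0.25 to 2.55, edgeR adjusted p = 0.283, unadjusted p = 0.0223). It was 0.68 without KO 2 and 1.85 without KO 1, where it passed the threshold (edgeR adjusted p = 0.0233), and its adjusted p over the alternatives ranged up to 0.99994. With the trend on transcript length removed the log2 fold change was 1.15 (edgeR adjusted p = 0.365). For each count of Nfkbia there were 0.127 and 0.211 counts of Tnfaip3 in WT and 0.316 and 0.374 in KO.

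Birc3 and Traf1 differed least among the feedback genes. Birc3 (chromosome 9, 7848699 to 7873186, minus strand), which encodes cIAP2, a ubiquitin ligase at TNF receptors, had 49.3 and 51.7 CPM in WT and 55.7 and 66.8 in KO. Traf1 (chromosome 2, 34941750 to 34961772, minus strand), which encodes an adaptor of TNF receptors, had 81.3 and 53.5 CPM in WT and 89.0 and 88.4 in KO. For both genes the libraries titled KO lay above those titled WT, by log2 fold changes of 0.28 (SE 0.42, interval -0.67 to 1.22) and 0.40 (SE 0.43, interval -0.57 to 1.36). Neither passed (edgeR adjusted p = 0.807 and 0.720). With each library left out, Birc3 ranged from 0.10 without KO 2 to 0.40, and Traf1 from 0.08 without WT 2 to 0.67 without WT 1.

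The set did not move as one within the libraries titled KO. Nfkb1 and Rel were lower in KO 2 than in KO 1, at 0.357 and 0.485 times its CPM. Nfkbiz, Tnfaip3, Rela and Nfkbia were higher in KO 2, at 2.85, 2.20, 2.08 and 1.86 times, and Nfkb2, Relb, Birc3 and Traf1 were at 1.45, 1.21, 1.20 and 0.993 times. The median absolute log2 ratio of KO 2 over KO 1 was 0.96 for the 10 genes and 0.65 for all genes tested, and that of WT 2 over WT 1 was 0.39 and 0.42. A list of 10 genes that respond to tissue dissociation, such as Fos, Jun and Atf3, summed to 7570 and 6515 CPM in WT 1 and WT 2 and to 4948 and 12025 CPM in KO 1 and KO 2. KO 2 was highest and KO 1 lowest on this sum, and KO 2 was also highest for Nfkb2, Rela, Nfkbia, Nfkbiz, Tnfaip3 and Birc3. Not every gene of the list ran in this order. Atf3, Dusp1, Egr1, Fos, Hspa1a, Hspa1b, Jun and Junb were highest in KO 2, Fosb in KO 1 and Ier2 in WT 1. KO 1 was not lowest for Egr1, Fosb, Hspa1b and Ier2. Dusp1, Junb and Fos held 4035, 2805 and 1949 CPM of the sum in KO 2. All 10 genes of the list were tested and had a positive log2 fold change, from 0.01 to 0.78, none passed (edgeR), none had an unadjusted p under 0.05, and no gene of it was at 0 throughout a group. The part of dissociation in the values of KO 2 was not tested.

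**Figure D4:**
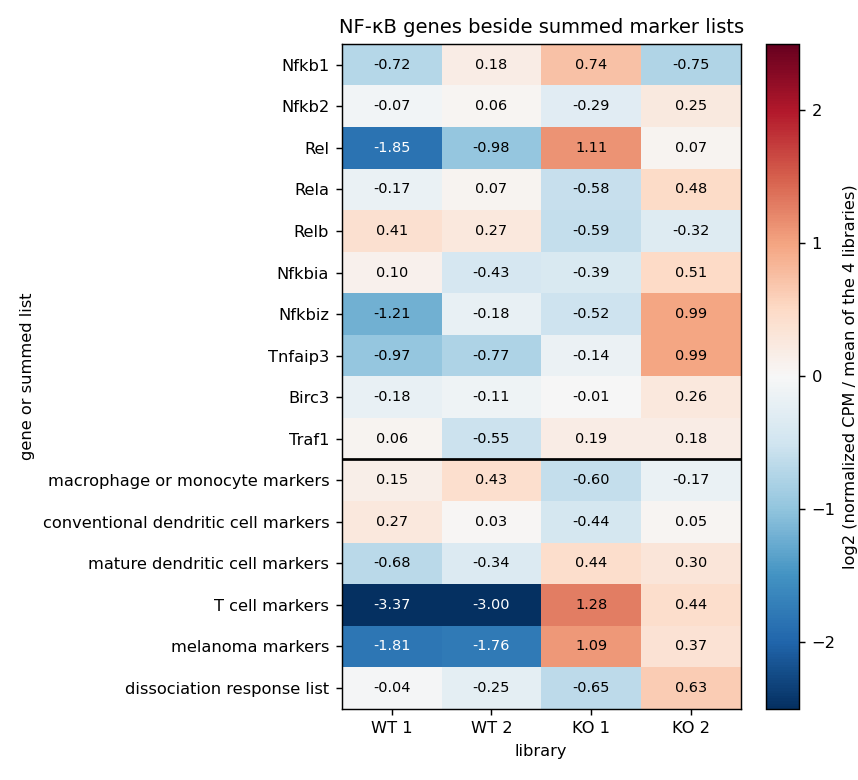
Log2 of the normalized CPM over the mean of the 4 libraries, for the 10 genes (top) and for the summed marker lists (bottom), with 1 column per library and the values printed in the cells, where the color scale is saturated for the T cell list in WT. Rel runs from -1.85 in WT 1 to 1.11 in KO 1. Between the same libraries the T cell list runs from -3.37 to 1.28, the melanoma list from -1.81 to 1.09 and the mature dendritic cell list from -0.68 to 0.44. Nfkbiz and Tnfaip3 peak at 0.99 in KO 2, where the dissociation list peaks at 0.63.

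The rest of the pathway was described with 45 other genes, of which 43 were tested. Of these 1 passed, Prkcq, higher in KO, and 0 passed lower, where 0.549% and 0.0253% of all genes tested passed in those directions. The sign was positive for 18 and negative for 25, with a median log2 fold change of -0.19 beside 0.05 over all genes tested. With library totals as the only scaling these medians were 0.14 and 0.38. Prkcq encodes protein kinase C theta, which links the T cell receptor to NF-κB. It had 2 and 5 counts in the libraries titled WT and 125 and 116 in those titled KO, and rose by 4.51 on the log2 scale (SE 0.72, edgeR adjusted p = 0.0321), from 4.07 to 5.08 with each library left out. The T cell list moved with it, at 82.2 and 106 CPM in WT against 2054 and 1152 in KO and with log2 fold changes of its genes from 3.53 to 4.89, and its part in the rise of Prkcq was not tested. It was grouped with 3 other genes of the branch that signals through the adaptor Bcl10, and of the 4 genes 3 had a positive and 1 a negative sign. Bcl10 itself, Malt1 and Card9 had log2 fold changes of 0.29, 1.40 and -0.80, none past the threshold in edgeR or DESeq2. Card9, an adaptor of myeloid cells, had 6.88 and 17.2 CPM in WT and 3.22 and 10.6 in KO. Malt1, a protease that binds Bcl10, had 24.8 and 18.2 CPM in WT and 58.7 and 54.5 in KO (edgeR unadjusted p = 0.0116, adjusted p = 0.229).

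Of the receptor genes upstream, 9 of 11 were tested, with 3 positive and 6 negative signs. None passed in edgeR, where 2 higher and 2 lower had an unadjusted p under 0.05, beside 9.44% and 4.23% of all genes tested, and DESeq2 called 2, beside its 3.51%. The 3 most abundant were Tnfrsf1b, Tnfrsf1a and Tlr2, with log2 fold changes of -0.60, -0.79 and 0.50. The genes farthest from 0 were picked after their values were seen. Cd40, the receptor on antigen-presenting cells that engages the slower arm, had 191 and 178 CPM in WT and 69.3 and 82.0 in KO, a log2 fold change of -1.28 (SE 0.42, edgeR adjusted p = 0.236). Ltbr, the lymphotoxin receptor of the same arm, had 195 and 154 against 58.9 and 98.6 CPM (log2 fold change -1.14, edgeR adjusted p = 0.312). The macrophage or monocyte list, with 32286 and 38983 CPM in WT against 19094 and 25778 in KO, was lower in KO as both were, and its part in their levels was not tested. In contrast Tnfrsf9 and Tnfrsf18, the genes of the costimulatory receptors 4-1BB and GITR of activated T cells, had 53.2 and 25.6 against 160 and 164 CPM and 12.0 and 8.38 against 75.2 and 51.9 CPM. Their log2 fold changes were 2.04 and 2.64 (edgeR adjusted p = 0.124 and 0.0539). Tnfrsf18 passed under 8 of 12 alternatives, among them library totals as the only scaling (edgeR adjusted p = 0.0322), and Tnfrsf9 under 5 of 12, while Cd40 and Ltbr passed under 1 of 12 each. Tnfrsf9 and Tnfrsf18 were the genes that DESeq2 called. The T cell list, given with Prkcq, was higher in KO as they were, and its part in their levels and in that of Malt1 was not tested.

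The 18 adaptor and kinase genes, among them the IκB kinase gene Ikbkb, had a median log2 fold change of -0.10, with 8 positive and 10 negative. None passed in edgeR or DESeq2 and 0 had an unadjusted p under 0.05, beside 13.7% of all genes tested. Myd88, Irak2 and Ikbkb, the most abundant, had -0.37, -0.62 and -0.35. The 12 genes grouped as other inhibitors, a name that may not suit each, had a median of -0.22 (4 positive, 8 negative). None passed in edgeR, where 1 higher and 1 lower had an unadjusted p under 0.05, beside 9.44% and 4.23% of all genes tested. DESeq2 called 1, beside its 3.51%, and this was Tax1bp1, which passed under 3 of 12 alternatives in all. Among them Nfkbib, Nfkbid and Bcl3 had -0.07, 0.55 and -0.44. Tax1bp1 and Tnip1, picked after their values were seen, encode partners of A20. Tax1bp1 had 23.9 and 31.0 CPM in WT and 114 and 68.4 in KO (log2 fold change 1.73, edgeR adjusted p = 0.165). Tnip1 had 80.7 and 65.1 against 36.5 and 36.6 (log2 fold change -0.99, edgeR adjusted p = 0.349). The T cell, melanoma, mature dendritic cell and fibroblast or endothelium lists, given with Rel, were higher in KO as Tax1bp1 was. The macrophage or monocyte list, given with Relb, was lower as Tnip1 was. The part of these lists in the levels of both genes was not tested.

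Of 20 genes known as targets of NF-κB, all were tested, 9 had a positive and 11 a negative sign, and the median log2 fold change was -0.04 (0.0076 with upper-quartile factors and 0.29 with library totals). None passed (smallest edgeR adjusted p = 0.150), 3 had an unadjusted p under 0.05, all higher in KO, and DESeq2 called 1, Il6 (adjusted p = 0.0398), which passed under 4 of 12 alternatives in all. These counts among 20 genes stand beside 9.44% of all genes tested that were higher at an unadjusted p under 0.05 and 3.51% called by DESeq2. The 3 with the highest levels were Ier3, Cxcl2 and Il1b. Ier3, a gene of the early stress response, had 1150, 691, 503 and 892 CPM in WT 1, WT 2, KO 1 and KO 2. Cxcl2, a chemokine that draws neutrophils, had 406, 470, 642 and 1230, and Il1b, a cytokine of macrophages, had 172, 614, 850 and 878, and for both the libraries titled KO lay above those titled WT. Their log2 fold changes were -0.40, 1.09 and 1.14. Of the 20 target genes, 6 were higher and 2 lower in KO without overlap of the groups, beside 25.3% and 22.6% of all genes tested. The 3 genes with an unadjusted p under 0.05 were Il6, Il12b and Ptgs2, and they were named after their values were seen. Il6 had 8 and 16 counts in WT and 101 and 91 in KO (log2 fold change 2.44, edgeR adjusted p = 0.150), and Il12b had 0 and 6 against 36 and 34. Ptgs2, which encodes the prostaglandin enzyme COX-2, had 39.5 and 141 against 195 and 289 CPM (log2 fold change 1.42), and its value became 2.57 without WT 2 and 0.73 without WT 1. The T cell, melanoma, mature dendritic cell and fibroblast or endothelium lists, given with Rel, were higher in KO as these 3 genes were. The part of these lists in the levels of the 3 genes was not tested.

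**Figure D5:**
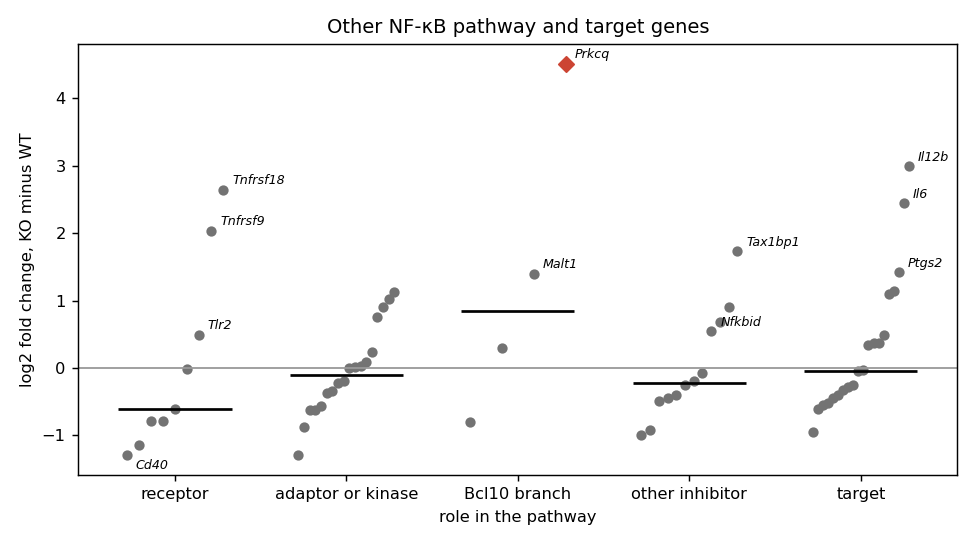
Log2 fold change of KO against WT for the 43 other pathway genes and 20 target genes tested, by role, with a line at the median of each role (-0.60 for receptors, -0.10 for adaptors and kinases, 0.84 for the Bcl10 branch, -0.22 for other inhibitors and -0.04 for targets). The red diamond is Prkcq at 4.51, the only one of these genes past the threshold, and grey circles are genes that did not pass.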

How the data were processed

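Polyadenylated RNA of 4 libraries (2 WT, 2 KO, grouped by title) was measured. The authors deposited raw read counts per gene symbol, 1 table per library, and the submitters' processing notes name HISAT2 2.1.0, HTSeq 0.11.0 and mm10. Annotation, strand setting and trimming were not given in the sources used here. Rows that name no gene, 71.2% to 79.5% of reads, were left out. Of the gene symbols, 96.3% matched GENCODE M21 (GRCm38), used for positions and lengths.

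Counts were fitted for all genes in R 4.3.3 with edgeR 4.0.16: filterByExpr (at least 10 counts scaled to library size in 2 libraries, 15 in total), TMM factors, prior count 0.125, and the two-sided quasi-likelihood test with group as the only term. P-values were adjusted over all genes by the Benjamini-Hochberg method. The SE is the log2 fold change divided by the square root of F, and 95% intervals use the t quantile of the fit. CPM used TMM-scaled library sizes. Pathway and target genes named beyond the set were those past the threshold and the 3 most abundant per role. Card9 was named as the remaining gene of the Bcl10 branch, and others are stated to be picked by value. One gene of the pathway list is not reported here and was left out of its counts. Genes and lists were chosen with earlier results of these data known.

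Alternatives were other scaling factors, no filter, DESeq2 1.42.0, a replicate block, each library left out and, added later, a block with the numbers crossed and offsets that take out how counts depend on transcript length in each library (lowess, span 0.3). The fit was first tested on simulated data. It recovered 27.5% of 200 genes changed by 2 on the log2 scale (4 false calls) and 93.5% of 200 changed by 4 (11 false calls).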

Additional observations from a re-analysis of the deposited data

How the results depend on the processing

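The number of genes past the threshold was 68 of all tested and 0 of the 10 NF-κB genes. The former became 136 with library totals as the only scaling, 583 with every gene that had a count, 416 in DESeq2 and 215 with the replicate number as a block (replicate block), and ranged from 113 to 1249 with each library left out, where the lone library of a group is assumed to vary like the pair of the other. Without KO 2, 58.0% of the calls were higher in KO, against 95.6% in all libraries. The crossed replicate block called 647 genes, 535 higher and 112 lower, and 1 of the 10. The count among the 10 genes became 1 with every gene that had a count (Rel), in DESeq2 (Rel), without KO 1 (Tnfaip3) and without KO 2 (Rel), a range of 0 to 1 with a library left out, and stayed at 0 in the replicate block, in which Tnfrsf18 passed (edgeR adjusted p = 0.0113). Same-numbered libraries did not deviate together (Pearson r = -0.19 between WT 1 and KO 1 over 11837 genes, which are not independent replicates), so the numbers were not used as pairs.

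Over 12 alternatives each, 103 of 120 fold changes of the 10 genes kept their sign and their side of the threshold. The sign of Nfkb2 turned to -0.0039 with every gene, -0.0117 in the replicate block, -0.0120 in the crossed block and -0.15 with the length trend removed. With each library left out, Nfkb2 ranged from -0.32 to 0.25, Nfkb1 from -0.56 to 0.90, Rela from -0.57 to 0.52, Nfkbia from -0.29 to 0.64 and the median of the other pathway genes from -0.37 to 0.0203. The median of the target genes ranged from -0.17 to 0.0949 with a library left out, and was 0.0076 with upper-quartile factors. With library totals as the only scaling, the medians of the pathway and target genes were 0.14 and 0.29, but that setting moved the median of all genes from 0.05 to 0.38, and relative to it both stayed negative. The cause of these changes was not tested. The smallest absolute log2 fold change past the threshold in edgeR was 3.15, while DESeq2 called Rel at 2.02 in the same libraries.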
